A study of Mus musculus with 6 samples.

Results

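Imprinted genes are expressed mainly from the chromosome of 1 parent, and many of them act on growth before and after birth. This account covers 10 imprinted genes linked to muscle growth and regeneration, namely H19, Igf2, Meg3, Rian, Mirg, Dlk1, Peg3, Mest, Cdkn1c and Grb10, among 55401 gene identifiers in a table of RNA-seq counts. The genes were listed by name. H19 was chosen by its fold change between these same 6 libraries, in which it stood higher with RBM20, so its values are given as a description with no test. The other 9 were listed as imprinted genes of the same network. All 10 genes passed the filter on low counts that left 17222 genes for testing.

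RNA was measured in the tibialis anterior (TA) muscle of C57BL/6 mice carrying the iMSBmal1-/- knockout, labelled HSA-MCM-Bmal1-/-, in which a tamoxifen-inducible Cre under the human skeletal actin promoter removes the clock gene Bmal1 from skeletal muscle fibres. All 6 samples carried this knockout, so both groups lacked the clock factor and there was no wild-type arm in the comparison. Mice were 12 to 16 weeks old and received tamoxifen at 2 mg per day for 5 days. Their TA was injected 4 weeks later with adeno-associated virus (AAV) and collected after a further 4 weeks, which was 8 weeks after tamoxifen. AAV-GFP (n = 3) carried green fluorescent protein, and AAV-RBM20 (n = 3) carried the mouse cDNA of RBM20, a splicing regulator of titin, behind the CMV promoter, which is not restricted to muscle. More of the RBM20 vector than of the GFP vector was injected, and the effects of transgene and vector dose cannot be told apart. The labels do not say whether the 6 samples were separate mice, so p-values measure the spread between these samples. The study's protein blots list, for some mice, a leg with each vector, and whether the libraries share mice in this way is not stated.

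Imprinted genes lie in clusters, and each cluster has a control region whose DNA methylation differs between the maternal and paternal copy. At the H19-Igf2 cluster the maternal chromosome expresses the long noncoding RNA H19 and the paternal chromosome expresses the growth factor Igf2, from enhancers that they share. At the Dlk1-Dio3 cluster the maternal copy makes the noncoding RNAs Meg3, Rian and Mirg and the paternal copy makes Dlk1. H19 is abundant in embryonic muscle and in myoblasts, falls after birth, and is known to be made again when muscle regenerates.

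H19, Igf2, Meg3, Rian, Mirg and Mest also carry microRNAs (miRNAs) in their exons or introns. In the GRCm38.p6 annotation of RefSeq these 6 genes held 41 mature miRNAs from 22 miRNA genes, of which 21 had a hairpin entry, and Mirg alone held 14 of the hairpins. The mature sequences below, from RefSeq and written 5′ to 3′, show what each locus encodes beyond its long transcript, with the seed (bases 2 to 8) in capitals. The first pair comes from an exon of H19, the second from an intron of Igf2, the third from an intron of Mest, and the next from an exon of Meg3 and an intron of Rian. The last 2 lie in introns of Mirg and are shown because they were the only mature miRNAs among the 41 to share a seed, which leaves 40 distinct seeds.
miR-675-5p: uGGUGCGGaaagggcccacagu
miR-675-3p: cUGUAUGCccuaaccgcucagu
miR-483-5p: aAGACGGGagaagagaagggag
miR-483-3p: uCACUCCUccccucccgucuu
miR-335-5p: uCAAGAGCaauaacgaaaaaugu
miR-335-3p: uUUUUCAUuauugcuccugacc
miR-770-3p: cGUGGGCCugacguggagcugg
miR-370-3p: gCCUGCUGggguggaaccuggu
miR-453: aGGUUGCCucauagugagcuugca
miR-496a-5p: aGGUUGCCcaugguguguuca

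These libraries were made from ribosomal RNA-depleted RNA and read in pairs of 100 bases, which does not capture mature miRNAs, so the values below are those of the long host transcripts. The hairpins lie at chr7:142577064-142577147 on the minus strand (Mir675), chr7:142654924-142654996 on the minus strand (Mir483), chr6:30741299-30741396 (Mir335), chr12:109563692-109563785 (Mir770), chr12:109618258-109618336 (Mir370), chr12:109735619-109735700 (Mir453) and chr12:109739119-109739197 (Mir496a), the last 5 on the plus strand. The hairpin Mir675 inside the H19 exon was listed at 0 counts in all 6 libraries.

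Total counts ranged from 41400132 to 54226618 per library. The libraries numbered 3 stood apart from the others in both groups. Titin took 4.48% of the counts in AAV-GFP replicate 3 and 9.05% in AAV-RBM20 replicate 3, against 16.9% to 17.8% in the other 4, and mitochondrially encoded genes took 11.4% to 12.5% against 6.41% to 7.66%. Rbm20 checked the labels, with 166 ± 3.20 CPM (counts scaled to a common library size by the TMM method; SD, n = 3) in AAV-GFP, against 484 ± 71.0 CPM in AAV-RBM20, no overlap between the groups, and a log2 fold change of 1.54 ± 0.15 (SE). A gene count does not separate vector from endogenous transcripts. The adjusted p of Rbm20 was 0.121 in the edgeR test, which used the quasi-likelihood method and the Benjamini-Hochberg procedure over every gene tested.

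In edgeR, 0 of 17222 genes reached an adjusted p of 0.05, a background of 0%, and none of the 9 imprinted genes other than H19 did so. At an unadjusted p under 0.05 the test called 1360 genes (7.9%), of which 702 were higher in AAV-RBM20 (4.08%) and 658 lower (3.82%). By the same measure Igf2 and Mest were higher and Rian was lower among the 9 genes, with adjusted p from 0.617 to 0.945. With the replicate number as a block (8.92% of all genes higher and 9.92% lower at an unadjusted p under 0.05), Mest, Rian and Peg3 were called at that level and Igf2 was not (edgeR adjusted p = 0.268). DESeq2 called 75 genes at an adjusted p of 0.05 (0.436%), none of them among the 9. The 10 genes divided evenly in sign, with 5 positive and 5 negative log2 fold changes, while the median over all genes tested was 0.01. The positive sign of H19 was fixed by its choice.

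Among the 9 genes, all 3 AAV-RBM20 libraries lay above all AAV-GFP libraries for Mest and below them for Rian, and the groups overlapped for the other 7. H19 was separated as well, which its choice by this contrast had fixed. Over all genes tested, 7.71% were separated upward in this way, 9.04% downward and 16.8% in either direction.

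**Figure D1:**
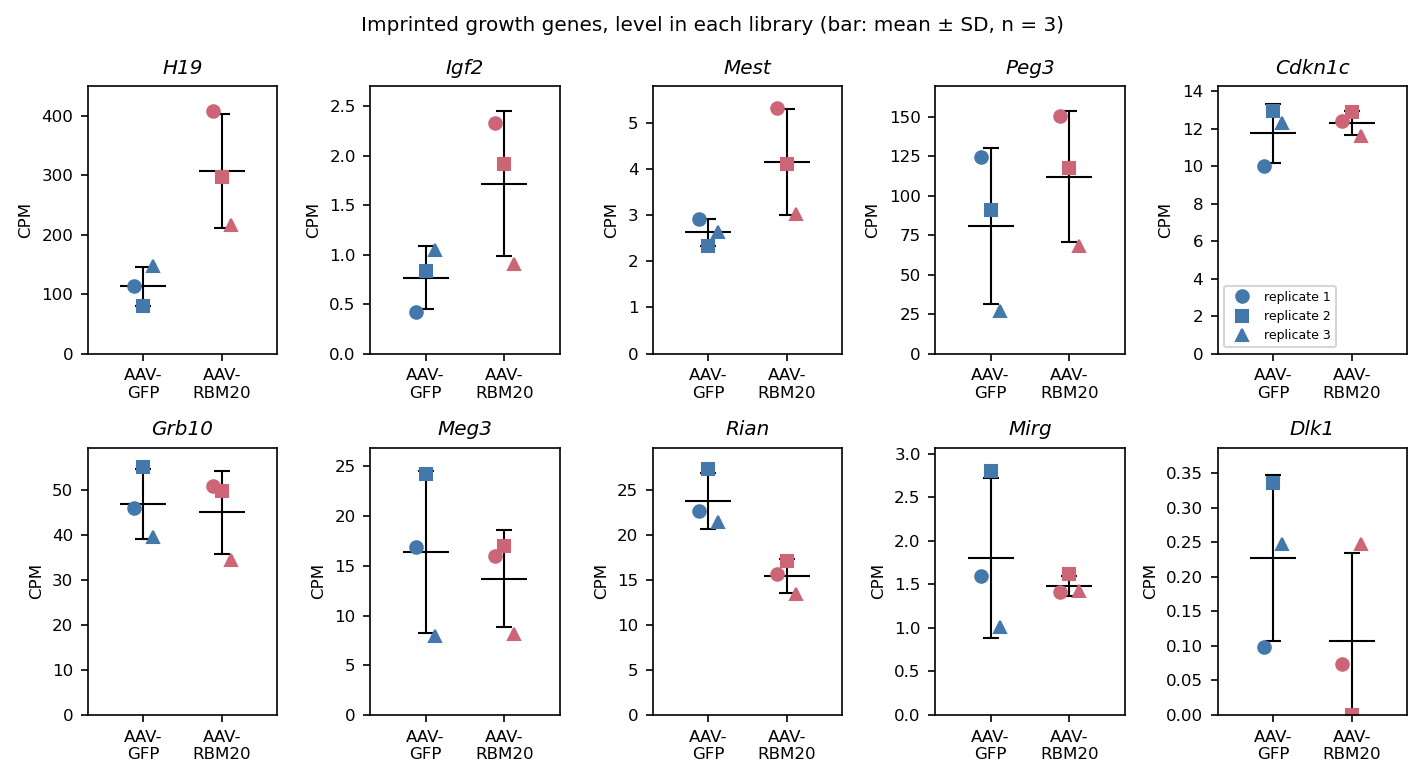
Level of each of the 10 imprinted genes in CPM (vertical axes, each starting at 0) in the 3 AAV-GFP (blue) and 3 AAV-RBM20 (red) libraries. Circles, squares and triangles mark replicates 1, 2 and 3 and black bars the mean ± SD; the groups are separate only for H19, Mest and Rian.

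H19 (ENSMUSG00000000031; GRCm38 chromosome 7, 142575529 to 142578143, minus strand, 3 merged exons) stood at 113, 79.6 and 146 CPM in AAV-GFP replicates 1, 2 and 3. In AAV-RBM20 it stood at 408, 297 and 217 CPM. The lowest AAV-RBM20 library was thus above the highest AAV-GFP library, and AAV-RBM20 replicate 1 was the highest of all. The means were 113 ± 33.4 and 307 ± 96.1 CPM (SD, n = 3), a ratio of 2.72, and the log2 fold change was 1.44 ± 0.29 (SE). The value lay between 1.19 and 1.67 when any 1 library was left out and was 1.88 without the libraries numbered 3. Counts were high throughout, from 3324 to 22252, so counting error is small beside the spread between libraries.

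The genes whose profile over the 6 libraries was nearest to that of H19 were Maged2, Rap1gap2, Ahnak2, Rbm20 and Per3. Nearness was the root mean square difference of centred log2 CPM over the 6 libraries among the 11555 genes whose mean log2 CPM reached 1, and it ranged from 0.262 for Maged2 to 0.381 for Per3. Maged2, which encodes a member of the MAGE family, went from 5.73, 6.30 and 8.45 CPM in AAV-GFP to 22.2, 18.1 and 9.49 CPM in AAV-RBM20. Per3, a component of the circadian clock, went from 18.5, 16.6 and 21.2 CPM to 41.2, 30.7 and 36.7 CPM. These genes were chosen for likeness to a gene that was itself picked for its contrast, so their levels are a description.

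Igf2 (ENSMUSG00000048583; chromosome 7, 142650766 to 142666816, minus strand, 8 merged exons) encodes insulin-like growth factor 2, a fetal growth factor. It was read by 17, 35 and 55 counts in AAV-GFP and by 127, 77 and 44 counts in AAV-RBM20. These correspond to 0.418, 0.839 and 1.04 CPM against 2.33, 1.92 and 0.906 CPM. AAV-RBM20 replicates 1 and 2 were above every AAV-GFP library, and replicate 3 lay below AAV-GFP replicate 3. The log2 fold change, 1.15 ± 0.45 (SE), had an adjusted p of 0.618 in edgeR. With both libraries numbered 3 left out it was 1.76, and edgeR gave an adjusted p of 0.0202 in a fit that called 690 genes (4%). That fit, like every fit below without these libraries, compared only replicates 1 and 2 of each group.

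The count of Igf2 may cover only a part of its transcript. Of its 5723 exon bases, 62.8% are shared on the same strand with the gene model Gm49394, which was listed at 0 counts in all 6 libraries. The same held more widely: of 23 gene models that share exon bases with one of the 10 genes on the same strand, 22 had 0 counts in all libraries, and the other, Mir369 within Mirg, had 1 count in total. How reads over shared exons were assigned was not given in the sources used here, so the level of Igf2 is uncertain, and its comparison between groups rests on few counts.

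The shared cluster was also read through Nctc1, a noncoding gene beside H19 that contains a muscle enhancer and was added after its values were seen. Nctc1 was measured at 251, 249 and 144 CPM in AAV-GFP, against 251, 252 and 167 CPM in AAV-RBM20, and edgeR gave a log2 fold change of 0.06 ± 0.25 (SE; adjusted p = 0.958). Its level was lowest in the libraries numbered 3 and was nearly equal in the other 4. The count of H19 per count of Nctc1 was 0.449, 0.320 and 1.01 in AAV-GFP, against 1.62, 1.18 and 1.29 in AAV-RBM20, which restates the contrast that H19 was chosen by. The count of H19 per count of Igf2 was 270, 95.0 and 140 in AAV-GFP, against 175, 155 and 239 in AAV-RBM20, and here the groups overlapped. The only other tested gene between H19 and Igf2 was Gm33148, for which edgeR gave a log2 fold change of 0.63 ± 0.80 (SE; adjusted p = 0.826).

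Rian had the smallest p of the 9 genes. Rian (ENSMUSG00000097451; chromosome 12, 109603940 to 109661716, plus strand, 19 merged exons) is a nuclear long noncoding RNA that hosts small nucleolar RNAs and miRNAs. It was measured at 22.6, 27.3 and 21.4 CPM in AAV-GFP, against 15.7, 17.1 and 13.4 CPM in AAV-RBM20. Every AAV-RBM20 library was below every AAV-GFP library. Of all genes tested, 23% were lower with RBM20 in each of the 3 same-numbered pairs, as Rian was. The means were 23.8 ± 3.11 and 15.4 ± 1.86 CPM (SD, n = 3), and edgeR gave a log2 fold change of -0.63 ± 0.15 (SE), an unadjusted p of 0.0031 and an adjusted p of 0.617.

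The replicate numbers of the titles were also used as a block, because same-numbered libraries deviated together from their group means. This set the libraries numbered 3 apart but did not establish which of replicates 1 and 2 belong together. In the blocked edgeR fit the log2 fold change of Rian was -0.63 ± 0.09 (SE; adjusted p = 0.0663), while 25 genes passed the threshold (0.145%). DESeq2 with the block gave Rian an adjusted p of 0.0019 in a fit that called 513 of 13883 genes (3.7%). Without the libraries numbered 3, Rian stood at -0.60 on the log2 scale (edgeR adjusted p = 0.0127). Rian thus had the same sign in every one of 17 alternatives, between -0.71 and -0.52, and its call depended on the fit.

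Meg3 (ENSMUSG00000021268; chromosome 12, 109541001 to 109571726, plus strand, 8 merged exons), the maternally expressed noncoding RNA at the start of the same cluster, overlapped between groups. It was measured at 16.9, 24.3 and 7.96 CPM in AAV-GFP, against 16.0, 17.0 and 8.11 CPM in AAV-RBM20. The libraries numbered 3 were the lowest in each group. The log2 fold change, -0.26 ± 0.41 (SE), had an adjusted p of 0.865 in edgeR, and it was 0.14 without AAV-GFP replicate 2, so its direction was not fixed.

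Mirg (ENSMUSG00000097391; chromosome 12, 109729764 to 109749460, plus strand, 14 merged exons), the noncoding host of 14 of the 67 annotated miRNA hairpins of the cluster, was read by 53 to 117 counts per library. It stood at 1.60, 2.80 and 1.01 CPM in AAV-GFP, against 1.41, 1.62 and 1.42 CPM in AAV-RBM20. All 3 AAV-RBM20 values lay inside the AAV-GFP range, and edgeR gave a log2 fold change of -0.28 ± 0.38 (SE; adjusted p = 0.836). Without AAV-GFP replicate 2 the value was 0.19, and without the libraries numbered 3 it was -0.54.

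Dlk1 (ENSMUSG00000040856; chromosome 12, 109452823 to 109463336, plus strand, 6 merged exons) encodes a membrane protein of the Notch ligand family that is known from muscle development. It was close to the limit of detection, with 4, 14 and 13 counts in AAV-GFP, against 4, 0 and 12 counts in AAV-RBM20. The 0 in AAV-RBM20 replicate 2 allows a level of up to 0.0746 CPM, from the 3 counts that a count of 0 allows, which covers counting error only. The log2 fold change of -1.04 ± 0.91 (SE), with an edgeR adjusted p of 0.744, shows no difference detectable at this depth. Leaving out AAV-RBM20 replicate 3 gave -2.40 and leaving out replicate 2 of that group gave -0.52, while leaving out AAV-GFP replicate 2 gave -0.68.

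The 3 noncoding RNAs of the cluster were compared within each library, which removes any effect of scaling. There were 1.34, 1.12 and 2.69 counts of Rian per count of Meg3 in AAV-GFP, against 0.978, 1.01 and 1.65 in AAV-RBM20. The ratio was lower with RBM20 in 3 of 3 same-numbered pairs, but the groups overlapped, and a two-sided exact permutation test gave p = 0.5, where 0.1 is the smallest that 3 against 3 allows. Mirg per Rian went from 0.0707, 0.103 and 0.0471 to 0.0902, 0.0945 and 0.106 (exact permutation p = 0.3), and Mirg per Meg3 gave an exact permutation p of 0.9. The ratio of Igf2 to Nctc1 gave an exact permutation p of 0.2, and over these 4 the adjusted p ranged from 0.6 to 0.9. None of the 4 ratios separated the groups.

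**Figure D2:**
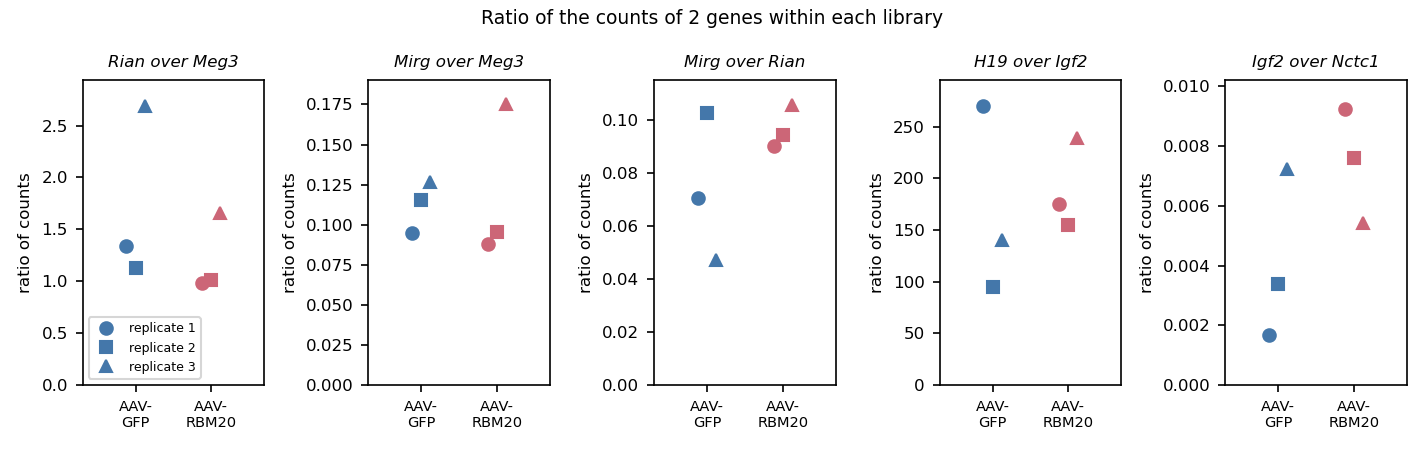
Ratio of the counts of 2 genes within each library (vertical axes, starting at 0) for 5 pairs of genes, in AAV-GFP (blue) and AAV-RBM20 (red), with circles, squares and triangles for replicates 1, 2 and 3. The groups overlap for every pair, and the Rian to Meg3 ratio was highest in replicate 3 of each group.

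From Dlk1 to Dio3, the outermost genes of the cluster, 116 annotated features were present in the table and 8 were tested. Beside Dlk1, Meg3, Rian and Mirg, these were Gm37899 at 0.07 ± 0.31, B830012L14Rik at -0.32 ± 0.37, Gm3379 at -0.71 ± 0.54 and Dio3os at 0.09 ± 0.44 (log2 fold change ± SE), with edgeR adjusted p from 0.71 to 0.962. B830012L14Rik and Gm3379 were lower with RBM20 in 3 of 3 same-numbered pairs, with overlapping groups. The 67 annotated miRNA hairpins and 23 small nucleolar RNAs of the cluster together had 92, 148 and 56 counts in AAV-GFP, against 149, 107 and 86 in AAV-RBM20, and no feature exceeded 12 counts in any library.

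Genes near to Meg3 in profile were Pitpnm3, Gpc4, Tacc2 and Mast4, at a root mean square difference of 0.164 to 0.200. Each was lower in the libraries numbered 3. Gpc4, a cell surface proteoglycan, was at 73.1, 70.1 and 24.9 CPM in AAV-GFP, against 58.4, 56.7 and 24.8 CPM in AAV-RBM20.

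Mest (ENSMUSG00000051855; chromosome 6, 30723547 to 30748465, plus strand, 18 merged exons) encodes an enzyme of the hydrolase family that is paternally expressed in growing mesoderm. It was measured at 2.90, 2.32 and 2.64 CPM in AAV-GFP, against 5.32, 4.10 and 3.03 CPM in AAV-RBM20. The groups did not overlap, although AAV-RBM20 replicate 3 was only slightly above AAV-GFP replicate 1. The means were 2.62 ± 0.29 and 4.15 ± 1.15 CPM (SD, n = 3), and edgeR gave a log2 fold change of 0.66 ± 0.25 (SE; adjusted p = 0.618). Without the libraries numbered 3 the log2 fold change was 0.86 with an edgeR adjusted p of 0.0402. Of the exon bases of Mest, 23.1% lie opposite Copg2, and the strand setting of the counting was not given in the sources used here.

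Peg3 (ENSMUSG00000002265; chromosome 7, 6703892 to 6730431, minus strand, 10 merged exons) encodes a large zinc finger protein expressed in muscle stem cells and mesodermal tissue. It stood at 125, 90.9 and 27.0 CPM in AAV-GFP, against 151, 117 and 68.0 CPM in AAV-RBM20. Both groups were lowest in replicate 3 and overlapped widely, yet the AAV-RBM20 library was the higher in each of the 3 same-numbered pairs, as it was for 22.2% of all genes tested. The log2 fold change, 0.47 ± 0.51 (SE), had an adjusted p of 0.792 in edgeR, and the blocked fit gave 0.65 ± 0.21 (SE; adjusted p = 0.191). Leaving out AAV-GFP replicate 1 gave an unblocked value of 0.93, and leaving out AAV-GFP replicate 3 gave 0.05. Leaving out AAV-RBM20 replicate 1 gave 0.20, and leaving out replicate 3 of that group gave 0.74. With the block and without the libraries numbered 3, a fit chosen after seeing the data that called 1533 genes (8.89%), Peg3 was at 0.33 with an edgeR adjusted p of 0.0044.

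Cdkn1c and Grb10, which restrain growth, differed little. Cdkn1c (ENSMUSG00000037664; chromosome 7, 143458339 to 143461050, minus strand, 4 merged exons) encodes p57, an inhibitor of cyclin-dependent kinases. It was measured at 9.99, 12.96 and 12.3 CPM in AAV-GFP, against 12.4, 12.9 and 11.6 CPM in AAV-RBM20, a log2 fold change of 0.07 ± 0.14 (SE) with an edgeR adjusted p of 0.901. The AAV-RBM20 values all fell inside the AAV-GFP range, and the log2 fold change was 0.15 without the libraries numbered 3. Of the exon bases of Cdkn1c, 30.7% lie opposite Gm44732, so the missing strand setting applies here as it does to Mest. Grb10 (ENSMUSG00000020176; chromosome 11, 11930508 to 12038683, minus strand, 22 merged exons) encodes an adaptor that dampens insulin and IGF receptor signalling. It was measured at 45.9, 55.0 and 39.4 CPM in AAV-GFP, against 50.9, 49.8 and 34.4 CPM in AAV-RBM20, a log2 fold change of -0.06 ± 0.19 (SE) with an edgeR adjusted p of 0.945. The sign of either value changed when single libraries were left out, and both stayed within 0.17 of 0 on the log2 scale.

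**Figure D3:**
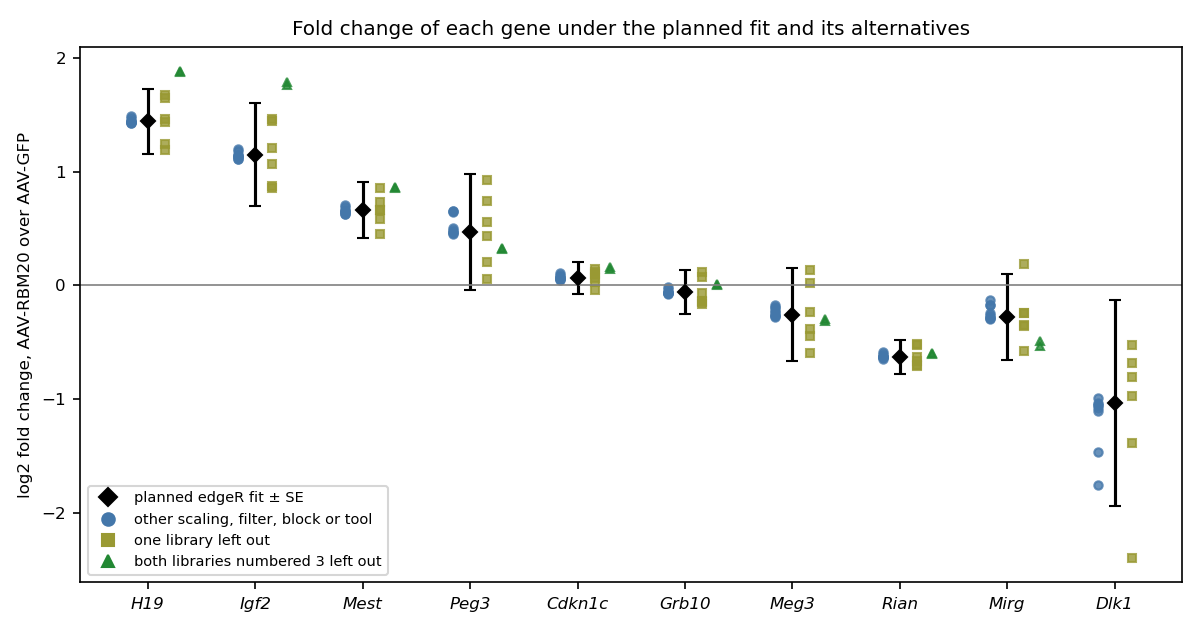
Log2 fold change of AAV-RBM20 over AAV-GFP (vertical axis) for the 10 genes. Black diamonds with bars show the edgeR fit ± SE, blue circles other scalings, filters, the replicate block or other tools, olive squares fits with 1 library left out, and green triangles fits without the libraries numbered 3. H19, Igf2, Mest and Peg3 stay above 0 and Rian and Dlk1 below 0 in all of them, while Cdkn1c, Grb10, Meg3 and Mirg cross 0.

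Levels of different genes were compared per kilobase of merged exon. H19 was the highest by far, at 45.9 CPM per kb in AAV-GFP, against 125 CPM per kb in AAV-RBM20. Peg3, Cdkn1c and Grb10 followed in AAV-GFP at 6.07, 5.76 and 5.15 CPM per kb, with ranges that overlapped from each to the next. Rian at 1.30, Meg3 at 0.905 and Mest at 0.665 CPM per kb formed a lower group, in which each range overlapped the next.

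Mirg at 0.247, Igf2 at 0.134 and Dlk1 at 0.0401 CPM per kb were the lowest in AAV-GFP, and only the ranges of Mirg and Igf2 overlapped. In AAV-RBM20 the first 4 genes kept their order, Mest came before Rian and Meg3, and Igf2 before Mirg, but in both places the ranges of neighbours overlapped. Over the exon bases that Igf2 does not share with Gm49394 its level would be 0.361 CPM per kb in AAV-GFP, against 0.807 CPM per kb in AAV-RBM20.

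A further 52 genes listed as imprinted, outside the list of 10, were counted as a group. Counts per gene do not separate the parental copies, so whether each is imprinted in this muscle was not measured. Of the 52, 36 were tested and 5, including the insulin gene Ins2, were listed at 0 counts in every library. None passed an adjusted p of 0.05 in edgeR or in DESeq2. At an unadjusted p under 0.05, 2 were higher and 3 lower, beside 4.08% and 3.82% of all genes tested, and 4 and 5 in the blocked fit, beside 8.92% and 9.92%. The groups were separate for 2 upward and 5 downward, beside 7.71% and 9.04%. Of the 36, 13 had a positive and 23 a negative log2 fold change, with a median of -0.10 beside 0.01 over all genes tested.

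The 4 with the smallest p were Asb4, Plagl1, Ppp1r9a and Blcap. Asb4, a substrate adaptor of a ubiquitin ligase, went from 18.1, 16.3 and 20.7 CPM to 12.8, 11.3 and 13.2 CPM, a log2 fold change of -0.56 ± 0.14 (SE; edgeR adjusted p = 0.618). Plagl1, a zinc finger transcription factor known to regulate other imprinted genes, went from 0.787, 1.46 and 1.50 CPM to 2.29, 2.59 and 2.47 CPM, a log2 fold change of 0.96 ± 0.29 (SE; edgeR adjusted p = 0.618). Every AAV-RBM20 library was beyond every AAV-GFP library for both genes. Ppp1r9a, an actin-binding scaffold, had a log2 fold change of 0.57 ± 0.20 (SE) and Blcap one of -0.35 ± 0.14 (SE), also with separate groups. DESeq2 with the block called Asb4 alone among the 36, with an adjusted p of 0.0136. Without the libraries numbered 3, edgeR called Asb4 at -0.50, Blcap at -0.40 and the matrix proteoglycan Dcn at 0.59 (0.21 with all libraries). Dcn is also a fibro-adipogenic marker. These 2 fits called 3.7% and 4% of the genes they tested.

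**Figure D4:**
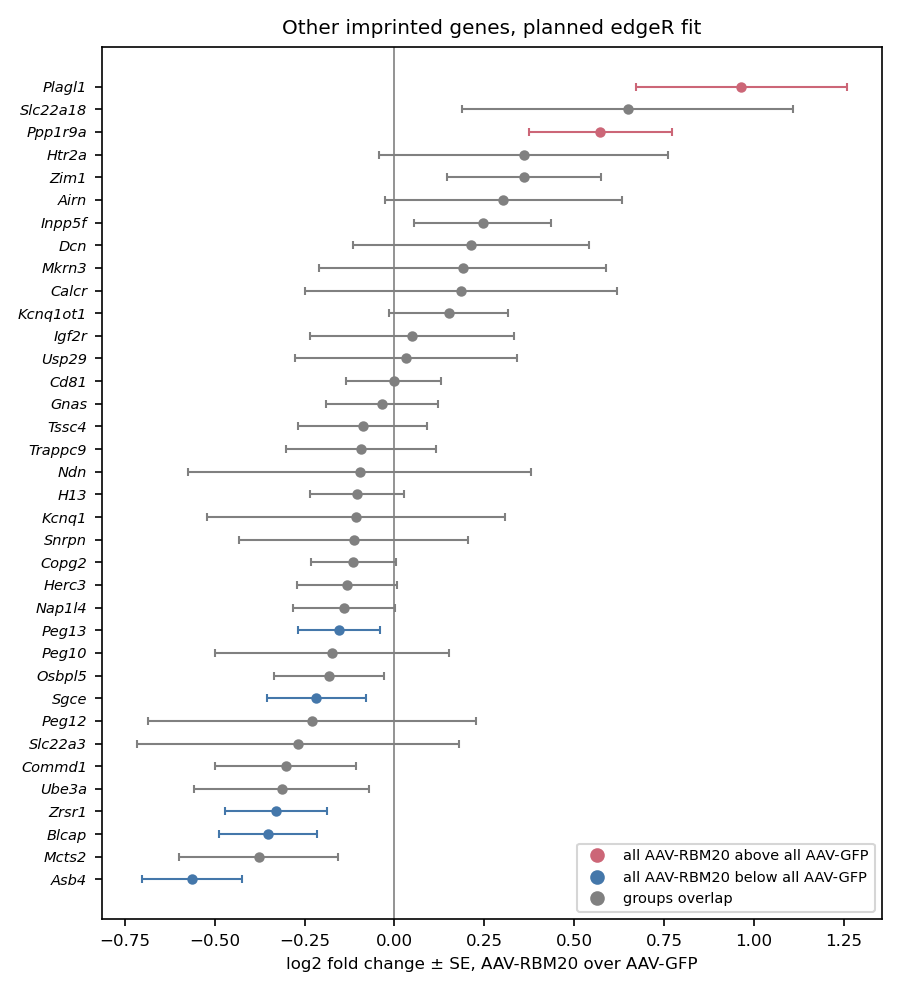
Log2 fold change ± SE of AAV-RBM20 over AAV-GFP (horizontal axis) in edgeR for the 36 tested imprinted genes outside the list of 10. Red marks the 2 genes whose AAV-RBM20 libraries were all above, and blue the 5 whose AAV-RBM20 libraries were all below, the AAV-GFP libraries; 23 of the 36 values are negative.

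A list for the Igf2 pathway included the receptor genes Igf1r, Insr and Igf2r, binding proteins and Irs adaptors. Of 18 genes of this pathway, 15 were tested and none passed even an unadjusted p of 0.05 in the unblocked fit, with 6 positive and 9 negative log2 fold changes and a median of -0.11. The smallest p belonged to Igf2bp2, which encodes a protein that binds Igf2 mRNA. It went from 9.20, 10.9 and 2.58 CPM to 5.37, 5.05 and 1.69 CPM, lower in each same-numbered pair, with a log2 fold change of -0.90 ± 0.57 (SE; edgeR adjusted p = 0.665). The blocked fit gave Igf2bp2 -0.85 ± 0.15 (SE; edgeR adjusted p = 0.0851) and called it alone of the 15 at an unadjusted p under 0.05. Of all genes tested, 9.92% were called lower at that level in the blocked fit. Igf2bp3 at -0.90 ± 0.57, Irs1 at -0.18 ± 0.13 and Htra1 at -0.29 ± 0.22 followed.

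Among 16 genes that set or read imprints, such as DNA methyltransferases, Tet enzymes and Ctcf, 13 were tested and none passed the adjusted threshold. Tet1, which oxidises methylated cytosine, was the only one at an unadjusted p under 0.05, with 10.1, 8.75 and 7.58 CPM in AAV-GFP, 13.8, 13.5 and 9.51 CPM in AAV-RBM20 and a log2 fold change of 0.48 ± 0.19 (SE). Its groups overlapped. Mbd3 at -0.31 ± 0.19, Zfp57 at 0.89 ± 0.55 and Dnmt1 at 0.32 ± 0.21 came next, and the median of the list was 0.16. In the blocked fit 3 were higher and 1 lower at an unadjusted p under 0.05, beside 8.92% and 9.92% of all genes tested.

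Of 16 genes that act with Dlk1 or with p57 (Notch receptors and their Hes and Hey targets, D-type cyclins, cyclin-dependent kinases, the kinase inhibitors Cdkn1a and Cdkn1b, Rb1 and E2f1), all were tested and none passed the adjusted threshold. A total of 13 had a positive log2 fold change, and the median was 0.20. At an unadjusted p under 0.05, 3 were higher, beside 4.08% of all genes tested, and 6 in the blocked fit, beside 8.92%. The groups were separate upward for 4 and downward for 0, beside 7.71% and 9.04% of all genes tested. The negative values belonged to Cdkn1a, Cdkn1b and Hey1. Cdk6, a kinase of the early cell cycle, went from 4.16, 4.10 and 1.99 CPM to 6.97, 5.90 and 6.32 CPM, a log2 fold change of 0.91 ± 0.28 (SE). Notch2 had a log2 fold change of 0.39 ± 0.12, Rb1 of 0.30 ± 0.12 and Ccnd3 of 0.31 ± 0.14 (SE), each with an edgeR adjusted p between 0.618 and 0.641 and with separate groups.

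Markers of regenerating fibres and of other cell types were read beside these results, since H19, Igf2, Mest and Peg3 are expressed in muscle stem cells and regenerating muscle. Of 8 genes for muscle stem cells and regenerating fibres, 7 were tested, 4 were higher and 1 lower at an unadjusted p under 0.05, beside 4.08% and 3.82% of all genes tested, and none passed the adjusted threshold in edgeR. The embryonic myosin Myh3 went from 1.13, 1.44 and 0.646 CPM to 8.38, 2.54 and 1.87 CPM, and the perinatal myosin Myh8 from 1.87, 1.82 and 0.874 CPM to 10.4, 3.98 and 3.81 CPM. AAV-RBM20 replicate 1 was the highest library for Myh3, Myh8, Pax7, Myf5 and Mymk, as it was for H19, Igf2, Mest and Peg3. Myog and Ncam1 were highest in AAV-RBM20 replicate 2, and Myod1 in AAV-GFP replicate 3. Genes of other lists, such as the endothelial marker Cdh5, were also highest in AAV-RBM20 replicate 1. Pax7, which marks muscle stem cells, had a log2 fold change of 0.34 ± 0.27 (SE), and Myod1 one of -0.32 ± 0.11 (SE). Myog had a log2 fold change of 0.54 ± 0.21 and Ncam1 one of 0.70 ± 0.18 (SE). The groups were separate upward for 4 genes (Myh3, Myh8, Myog and Ncam1) and downward for 1 (Myod1), beside 7.71% and 9.04% of all genes tested. The summed level of the list was 55.2 to 56.1 CPM in AAV-GFP, against 52.2 to 73.0 CPM in AAV-RBM20. Most of that sum was Myod1, at a mean of 39.7 CPM in AAV-GFP and 31.7 CPM in AAV-RBM20.

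The 8 muscle fibre markers summed to 92538 to 101028 CPM in AAV-GFP and to 60115 to 88978 CPM in AAV-RBM20, without overlap. Of the 8, 6 had a negative log2 fold change, while Myh1 and Myh2 had a positive one. Taken singly, only Tnnt3 and Pvalb were separate between groups. Myh4, the largest part of the sum, went from 36646 ± 4950 to 24805 ± 9458 CPM (SD, n = 3), with overlap. The 8 macrophage markers summed to 23.6 to 65.6 CPM in AAV-GFP and to 41.7 to 92.1 CPM in AAV-RBM20, and 7 of the 8 had a positive log2 fold change, with a median of 0.91. None of these genes passed the adjusted threshold in the unblocked edgeR fit. The blocked fit called 2 macrophage markers, Ccr2 and Ctss, beside 0.145% of all genes tested. At an unadjusted p under 0.05 that fit called 7 macrophage markers higher and 0 lower, beside 8.92% and 9.92% of all genes tested. Of the muscle fibre markers it called 0 higher and 3 lower. The 7 fibro-adipogenic markers summed to 505 to 1052 CPM in AAV-GFP and to 850 to 1102 CPM in AAV-RBM20.

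The other lists overlapped between groups in their summed levels. Endothelial markers summed to 146 to 341 CPM in AAV-GFP, against 223 to 338 CPM in AAV-RBM20, pericyte and smooth muscle markers to 542 to 589 and 502 to 590 CPM, and Schwann cell markers to 24.5 to 58.1 and 34.2 to 50.0 CPM. Adipocyte markers summed to 0.295 to 13.4 and 0.880 to 8.42 CPM, erythroid markers to 4.06 to 10.6 and 2.69 to 27.3 CPM, and lymphocyte markers, none of which passed the filter, to 0.443 to 0.950 and 0.572 to 3.58 CPM. In whole muscle, more cells of a type and more RNA per cell cannot be told apart. The part of regenerating fibres and of these cell types in the levels of the imprinted genes was not tested.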

How the data were processed

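Strand-specific, ribosomal RNA-depleted libraries were made from TA muscle, and the authors aligned the paired reads with HISAT2 to mm10 and counted reads per gene with HTSeq. The deposited values used here are raw counts without normalisation. The annotation release, the strand and overlap settings of HTSeq and the tool versions were not given in the sources used here. A deposited table of the same counts divided by 1 size factor per library was not used. Symbols, GRCm38 positions and merged exons were taken from GENCODE M21, which named 55141 of the 55401 identifiers, and miRNAs from RefSeq (GRCm38.p6). No sample columns of other origin were present.

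The 17222 genes kept by filterByExpr were tested in edgeR 4.0.16 (TMM, glmQLFit with robust estimation, glmQLFTest, no covariate) under R 4.3.3, with Benjamini-Hochberg adjustment over all of them and a threshold of 0.05. SE is the log2 fold change divided by the square root of F. The procedure was checked on simulated counts with known changes. There it called 48 of 50 genes at a true log2 fold change of -1 and 49 of 50 at 1. In the real libraries Rbm20, at a log2 fold change of 1.54, had an edgeR adjusted p of 0.121. The simulation therefore does not give the power of the test in these libraries, which was not tested. Log2 CPM used a prior count of 2.

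The 10 genes, the other lists and the tests were chosen with earlier results of these data known. Named from each further list were the genes past the threshold or, failing that, up to 4 with the smallest unadjusted p, together with every tested gene inside either cluster, the 5 genes nearest in profile to H19 and to Meg3, and Rbm20. A gene that this rule took for Meg3 is not reported here. The titles number both groups 1 to 3, while the descriptions number the AAV-RBM20 samples onward. Deviations from group means correlated across genes, which are not independent, at 0.42, 0.20 and 0.48 between same-numbered libraries, each above 0.1, and the libraries were on that ground treated as paired by number. Replicates 1 and 2 were not reliably told apart. AAV-GFP 2 gave 0.22 with AAV-RBM20 1, above its 0.20 with AAV-RBM20 2. AAV-GFP 1 with AAV-RBM20 2 gave 0.13, which is also above 0.1. The pairing of these replicates was thus not established, and results by block or by pair rest on the numbers in the titles. Replicates differed beyond sampling noise (chi-square per degree of freedom 15.1 to 545). Alternatives were other size factors, upper quartile scaling, removal of Ttn and mitochondrial counts, no filter or a minimum of 1 CPM in 3 libraries, the block, DESeq2 1.42.0, limma-voom (limma 3.58.1) and leaving out libraries.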

Additional observations from a re-analysis of the deposited data

How the results depend on the processing

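The number of genes past the adjusted threshold, 0 in the planned edgeR test and in each of the 6 fits that left out a library (0 to 0), was 8 when no filter was used, 25 under the replicate block, 75 in DESeq2, 513 in DESeq2 under the replicate block, 690 without the libraries numbered 3, and 1533 with the block and without those libraries, a fit chosen after seeing the data. The cause was not tested. Among 36 other imprinted genes it was 1, 3 and 5 in the last 3 of these fits, and the 5 were Zim1, Plagl1, Dcn, Asb4 and Blcap. The same 3 fits called 3.7%, 4% and 8.89% of the genes they tested. The fits without the libraries numbered 3 compared only replicates 1 and 2 of each group, and the block left still fewer degrees of freedom. Their adjusted p-values are thus not on a par with those from all 6 libraries.

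Calls gained were for Igf2 at a log2 fold change of 1.76 without the libraries numbered 3 (edgeR adjusted p = 0.0202) and 1.79 with the block added (0.0041). Rian was called at -0.63 in DESeq2 with the block (0.0019), at -0.60 without the libraries numbered 3 (0.0127) and at -0.59 with the block added (0.0005). Mest was called at 0.86 (0.0402) and 0.85 (0.007) in the latter fits, and Peg3 at 0.33 (0.0044) in the last. Over all alternatives the adjusted p reached 0.988 for Igf2, Rian and Mest and 0.995 for Peg3. The replicate block in edgeR changed no call of the 9 genes at the adjusted threshold.

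When 1 library was left out, log2 fold changes ranged from -0.59 to 0.14 for Meg3, -0.57 to 0.19 for Mirg, -0.040 to 0.14 for Cdkn1c and -0.17 to 0.11 for Grb10, which turned their direction. Without the libraries numbered 3 Grb10 was 0.0034, and 0.0099 with the block added. The log2 ratio of Mirg to Meg3, 0.03, ranged from -0.28 to 0.21, and that of H19 to Igf2, 0.28, from -0.060 to 0.69. H19, Igf2, Rian, Peg3 and Mest kept their sign in all 17 alternatives and Dlk1 in the 14 that could fit it. Depth limited Dlk1 and Igf2, whose counts were at most 14 and 127 per library.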
